A study of Mus musculus with 12 samples.

Results

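The ELOVL genes encode the 7 fatty acid elongases, and they were followed here in scWAT, the subcutaneous white fat, of mice kept warm or cold, with and without an active JMJD1A demethylase. The members were taken by name, from *Elovl1* to *Elovl7*, among the 55401 genes in the count data, and their gene IDs were matched to symbols. All 7 were listed. 6 of them had enough counts for a test, beside 16540 of all genes. *Elovl2* did not, with 0 to 5 counts in a library.

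RNA was sequenced from the scWAT of 12 female mice, 16 weeks old at the start of the treatment, 3 in each of 4 groups. The groups were *Jmjd1a* +/+ (wild-type) mice and *Jmjd1a* HY/HY mutants, all kept in single cages for 1 week at 30°C (thermoneutral, TN) or at 8°C (cold exposure, CE), after all had spent 1 week at 30°C. The HY allele carries an amino acid substitution in the catalytic domain that removes the demethylase activity of JMJD1A. It was made in the germ line, so that every tissue of the mutant carried it and not the adipocytes alone, and the mutants came from 1 knock-in line. Counts per gene cannot tell the HY allele from the wild-type allele. *Kdm3a*, the gene that encodes JMJD1A, was at 39.8 to 61.7 CPM in wild-type and 37.4 to 52.7 CPM in mutant libraries at 30°C and at 35.7 to 42.9 and 43.2 to 45.8 CPM at 8°C, where CPM are a gene's counts relative to the TMM-scaled library total. It did not pass the test in any of the 5 comparisons (edgeR, adjusted p from 0.186 to 0.963).

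Fatty acid synthase makes palmitate, and the elongases of the endoplasmic reticulum lengthen it and the fatty acids from the diet, each cycle adding a pair of carbons taken from malonyl-CoA. The ELOVL enzyme carries out the first and rate-limiting step of the cycle, the condensation, and its substrate preference sets which chains are lengthened. ELOVL1, ELOVL3, ELOVL6 and ELOVL7 act mainly on saturated and monounsaturated chains, ELOVL2 and ELOVL5 on polyunsaturated chains, and ELOVL4 makes the longest chains of retina, brain and skin. In adipose tissue *Elovl3* is known as a gene that cold switches on in brown fat, and *Elovl6*, which turns palmitate into stearate, as a target of the lipogenic factor SREBP-1c.

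Between 13592629 and 26352081 read pairs were counted on the sense strand of genes in a library, and each of the 6 libraries at 8°C was smaller than each of the 6 at 30°C. The 8 markers of white adipocytes used for the check of the tissue were all expressed, with a summed level between 22576 and 50610 CPM. Replicate 2 of the wild-type mice at 30°C stood apart. It held 1309 CPM of 8 skeletal muscle markers, against 3.64 to 23.5 CPM in the other 11 libraries, and 138.8 CPM of 9 skin and sebaceous gland markers, against 12.3 to 26.5 CPM.

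Per kilobase of exons, the scale on which levels of different genes may be compared, *Elovl6* led in wild-type scWAT at 30°C, with 38.2 ± 9.88 CPM per kb (mean ± SD, n = 3 in this and the following values). *Elovl5* followed with 21.9 ± 3.59 and *Elovl1* with 20.7 ± 2.35 CPM per kb, which differed by less than their SD. *Elovl7* was at 2.38 ± 0.946, *Elovl4* at 0.250 ± 0.336, *Elovl3* at 0.208 ± 0.159 and *Elovl2* at 0.0116 ± 0.00222 CPM per kb. The 7 levels summed to 83.7 ± 13.8 CPM per kb in wild-type and to 175.9 ± 70.7 in *Jmjd1a* HY/HY scWAT at 30°C. At 8°C the sums were 489.6 ± 42.3 and 188.6 ± 55.5 CPM per kb. The sum was thus highest in cold-exposed wild-type scWAT, where the lowest library, at 440.9, lay above the highest library of any other group, at 256.8. Since these are sums over a bulk tissue, fewer cells of a type and less RNA per cell cannot be told apart.

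**Figure D1:**
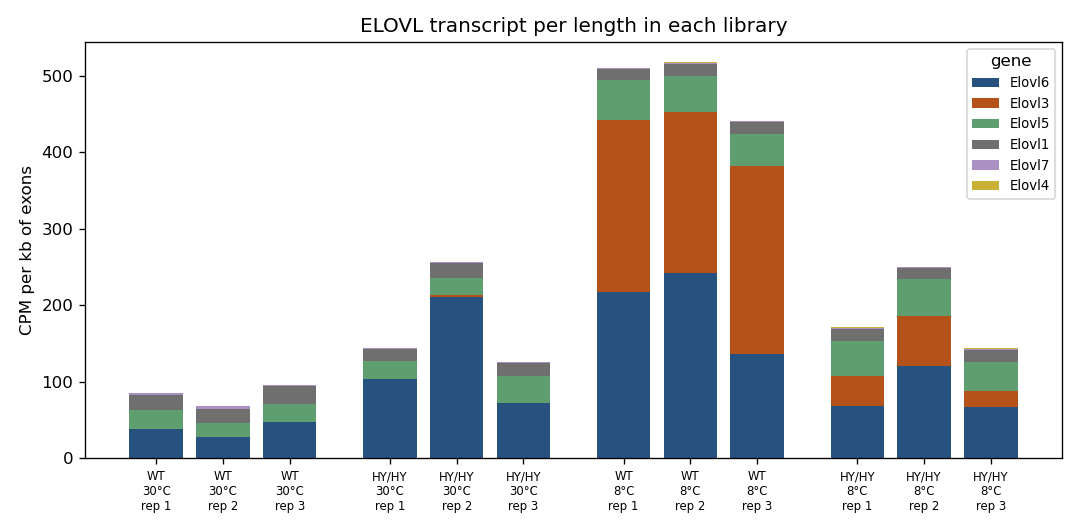
Level of the ELOVL genes per kilobase of exons (CPM per kb, linear axis from 0) in each of the 12 libraries, stacked by gene; *Elovl2* is too low to draw. The 3 wild-type libraries at 8°C reach 440.9 to 517.7 CPM per kb, and the orange *Elovl3* part is visible only at 8°C.

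The makeup of the sum changed as well. In wild-type scWAT *Elovl3* rose from 0.255 ± 0.202% of it at 30°C to 46.7 ± 7.85% at 8°C, while *Elovl6* held 45.2 ± 4.46% and 40.2 ± 8.19%. In *Jmjd1a* HY/HY scWAT *Elovl3* made up 0.453 ± 0.473% at 30°C and 21.1 ± 5.99% at 8°C. There *Elovl6* held 70.6 ± 12.3% at 30°C, with a lowest library of 57.7% against a highest of 49.7% in wild-type mice at that temperature, and 45.1 ± 4.55% at 8°C. *Elovl5* and *Elovl1* together made up the greater part of the rest in every group. *Elovl5* held 26.2 ± 2.30% in wild-type and 17.5 ± 9.66% in mutant scWAT at 30°C, and 9.54 ± 0.615% and 24.0 ± 4.29% at 8°C. The share of *Elovl1* went from 25 ± 2.13% to 3.17 ± 0.359% between 30°C and 8°C in wild-type scWAT and from 10.5 ± 3.08% to 8.76 ± 2.73% in mutant scWAT.

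The first comparison asked what 8°C does to the elongases of wild-type scWAT. A gene was called when the adjusted p lay under 0.05 and the fold exceeded 1.5 or fell short of 0.67. *Elovl3*, *Elovl5* and *Elovl6* were called higher at 8°C and no member was called lower. Of all genes tested, 17.3% were called, 10.3% higher (1707 genes) and 6.93% lower (1147 genes). Scaled by library totals the split was 1057 higher and 4144 lower. The 6 members had a median log2 fold change of 0.89, against -0.07 for all genes.

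*Elovl3*, on chromosome 19 (chr19:46131897-46135694 in GRCm38), had the largest change. Its level in wild-type scWAT at 30°C was 0.0453, 0.541 and 0.585 CPM, which were 1, 15 and 11 counts, and at 8°C it was 421.4, 396.0 and 461.1 CPM, which were 5671, 5249 and 7187 counts. The groups were far apart, and the 3 cold libraries lay within a narrow range. It rose by a log2 fold change of 10.06 (SE 0.98, 95% interval 7.93 to 12.19, edgeR adjusted p = 5.19e-05), which rests on the few counts at 30°C. In the same libraries the summed level of 8 beige adipocyte markers, among them *Ucp1*, went from between 115.3 and 276.4 CPM to between 8316 and 9216 CPM, with all 8 called higher. The summed level of 4 endothelium markers was higher too, at 376.1 to 581.6 CPM at 30°C and 705.5 to 991.1 CPM at 8°C, with 3 called higher. Those of mammary epithelium (4378 to 5752 CPM at 30°C, 2667 to 2993 CPM at 8°C, 1 of 10 tested called lower) and of macrophages (166.0 to 169.2 and 127.2 to 141.3 CPM, none of 6 called) were lower at 8°C without overlap. Of the 8 white adipocyte markers 2 were called lower, while their sums overlapped. The part of these cells in the levels of the members was not tested.

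*Elovl6*, on chromosome 3 (chr3:129532386-129638495), stood at 228.5, 168.0 and 285.6 CPM in wild-type scWAT at 30°C and at 1296, 1444 and 815.1 CPM at 8°C. The lowest cold library was above the highest warm one. This is a log2 fold change of 2.38 (SE 0.40, edgeR adjusted p = 0.00169), or 5.21-fold. Without replicate 2 at 30°C, the library with muscle and skin transcripts, it was 2.20 (adjusted p = 0.0106), and *Elovl3* was at 10.45 (0.000590).

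*Elovl5*, on chromosome 9 (chr9:77917365-77984519), lengthens the polyunsaturated chains that come from the essential fatty acids. It measured 86.3, 62.6 and 82.2 CPM at 30°C and 183.3, 163.8 and 146.4 CPM at 8°C, again with no overlap. The log2 fold change was 1.09 (SE 0.19, edgeR adjusted p = 0.00189), which is 2.14-fold, and without replicate 2 at 30°C it was 0.97 (adjusted p = 0.0106).

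Among the 6 members tested, the libraries of the temperatures did not overlap for 4 in wild-type scWAT, against 43.4% of all genes. The fourth was *Elovl1*, on chromosome 4 (chr4:118426874-118432953), whose product supplies the very long saturated chains of sphingolipids. It went the other way, from 54.2, 51.6 and 63.8 CPM to 39.3, 44.5 and 42.6 CPM. Its log2 fold change of -0.42 (SE 0.11, edgeR adjusted p = 0.0178) stayed inside the fold limits. Scaled by library totals, with which all genes had a median of -0.41, it was -0.76 and passed them (adjusted p = 0.000778).

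*Elovl7*, on chromosome 13 (chr13:108214326-108287109), measured 13.5, 17.8 and 7.55 CPM at 30°C and 7.88, 6.64 and 6.35 CPM at 8°C. The groups overlapped at 1 library, and the log2 fold change was -0.90 (SE 0.34, edgeR adjusted p = 0.0755). It passed the test without replicate 3 of the wild-type mice at 30°C (-1.17, adjusted p = 0.0207) or without replicate 3 of the mutant mice at 30°C (-0.90, adjusted p = 0.0254), and without replicate 2 of the wild-type mice at 30°C it was -0.60 (adjusted p = 0.270).

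*Elovl4*, on chromosome 9 (chr9:83778692-83806305), was near the limit of detection, with 4, 54 and 3 counts in wild-type scWAT at 30°C and 15, 19 and 21 counts at 8°C. The 54 counts came from replicate 2, the library with skeletal muscle and skin transcripts. With it the log2 fold change was 0.69 (SE 0.69, edgeR adjusted p = 0.497), and without it 2.88 (adjusted p = 0.0015). That library also had the highest level of *Elovl7*. *Elovl2*, on chromosome 13 (chr13:41182382-41220403), whose product makes precursors of docosahexaenoic acid, had 1 count in each wild-type library at 30°C and 0, 2 and 2 counts at 8°C, all at or below the 3 counts that a count of 0 allows.

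**Figure D2:**
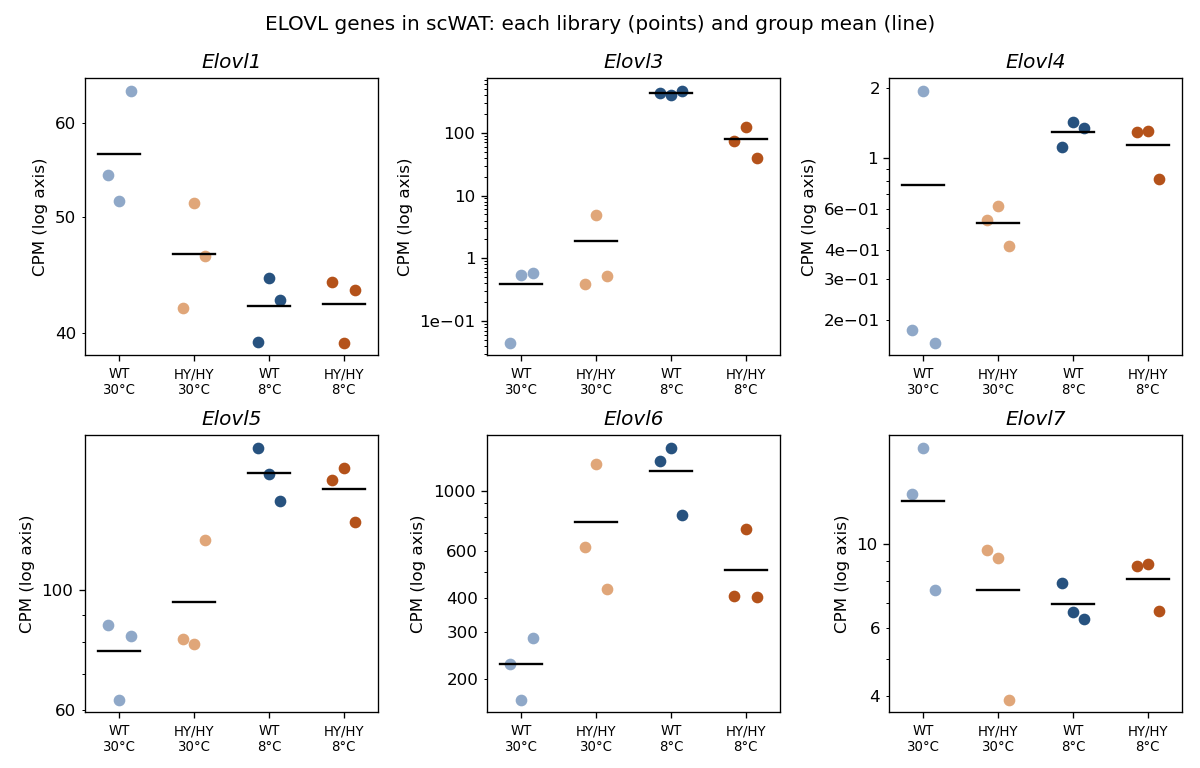
Level of the 6 ELOVL genes tested, in CPM on a log axis, in each library (points) with the mean of each group of 3 (line). *Elovl3* lies between 0.0453 and 4.82 CPM at 30°C and between 39.0 and 461.1 CPM at 8°C, and *Elovl6* is lowest in wild-type mice at 30°C.

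Since *Elovl3*, *Elovl5* and *Elovl6* were all higher in the cold, the 250 bases upstream of their RefSeq transcript starts in GRCm38.p6 were searched, with 6 of the 7 members matched and *Elovl3* not among them. The motifs, on both strands, were the sterol response element TCACNCCAC, the E-box CACGTG, the CCAAT box, the ERR element TNAAGGTCA, the cAMP response element TGACGTCA, the TATAAA box and the nuclear receptor elements DR1 and DR4, direct repeats of AGGTCA spaced by 1 and 4 bases. They occur in 1.05%, 6.02%, 33.9%, 1.14%, 1.55%, 12.4%, 0.0335% and 0.0152% of 32841 promoters of that length, in that order. *Elovl5* had 1 E-box, from position -161 to -156 relative to the start, and 2 CCAAT boxes, both read on the other strand as ATTGG. The *Elovl6* window held none of the 8. The 2 windows are printed 5′ to 3′ on the strand of the gene, with motifs in capitals, to let the upstream regions of the pair of called members be compared.
Elovl5 upstream (chr9:77917115-77917364, plus strand): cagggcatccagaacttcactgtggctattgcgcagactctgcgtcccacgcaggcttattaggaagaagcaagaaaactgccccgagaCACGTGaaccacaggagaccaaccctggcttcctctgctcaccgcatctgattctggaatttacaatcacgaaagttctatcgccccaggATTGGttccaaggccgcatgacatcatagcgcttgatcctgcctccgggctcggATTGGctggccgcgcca
Elovl6 upstream (chr3:129532136-129532385, plus strand): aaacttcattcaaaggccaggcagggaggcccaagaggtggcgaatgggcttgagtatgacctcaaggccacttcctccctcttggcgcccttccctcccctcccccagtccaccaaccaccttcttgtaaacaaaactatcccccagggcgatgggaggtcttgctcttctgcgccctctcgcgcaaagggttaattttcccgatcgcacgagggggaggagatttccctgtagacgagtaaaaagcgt
Of the members that were not called by cold in wild-type scWAT, *Elovl1* had 1 CCAAT box in the first of its 2 windows, and *Elovl2*, *Elovl4* and *Elovl7* had none of the motifs. The GC content was 55.6% for *Elovl5* and 56.4% for *Elovl6*, near the median of 52.4% over all promoters, and lay between 58% and 87.2% in the windows of the other 4. A match or its absence is a description of the letters and does not show binding.

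The second comparison asked how the elongases of *Jmjd1a* HY/HY scWAT responded to 8°C. Only *Elovl3* was called among the 6 members tested, and it was higher, where 0.248% of all genes were called, 0.181% higher and 0.0665% lower. The median log2 fold change of the 6 was 0.39, against -0.01 for all genes. *Elovl3* measured 0.387, 4.82 and 0.520 CPM at 30°C and 73.6, 122.5 and 39.0 CPM at 8°C, so that each cold library lay above each warm one. The log2 fold change was 5.29 (SE 0.77, 95% interval 3.61 to 6.96, edgeR adjusted p = 0.0194). Without replicate 2 of the mutant mice at 30°C, the warm library at 4.82 CPM, it was 7.44 (adjusted p = 0.00355). The call was lost without replicate 1 at 30°C (adjusted p = 0.0563), replicate 1 at 8°C (0.0730) or replicate 2 at 8°C (0.0653) of the mutant mice and in a fit of these 6 libraries alone (0.204). The beige marker sum went from between 130.1 and 311.0 CPM to between 561.7 and 1713 CPM in these libraries.

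*Elovl6* did not follow *Elovl3* in the mutant. It measured 619.1, 1255 and 433.0 CPM at 30°C and 407.0, 722.9 and 402.8 CPM at 8°C, with overlapping groups and a log2 fold change of -0.59 (SE 0.38, 95% interval -1.43 to 0.25, edgeR adjusted p = 0.508). *Elovl5* measured 81.3, 79.5 and 124.0 CPM at 30°C and 160.1, 168.2 and 133.8 CPM at 8°C. Its groups did not overlap, and the log2 fold change was 0.70 (SE 0.19, edgeR adjusted p = 0.144). Without replicate 3 of the mutant mice at 30°C, the highest of the warm libraries, it was 0.94 and passed the test (adjusted p = 0.0147). DESeq2, with no library left out, also called *Elovl5* higher.

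In mutant scWAT 3 of the 6 members had no overlap between the temperatures, all of them higher at 8°C, where 18.3% of all genes did not overlap in either direction and 9.33% did not overlap and were higher. The third was *Elovl4*, with 14, 18 and 8 counts at 30°C and 20, 21 and 10 counts at 8°C, which were 0.542, 0.620 and 0.416 CPM against 1.29, 1.31 and 0.812 CPM (log2 fold change 1.10, edgeR adjusted p = 0.511). *Elovl1* (log2 fold change -0.14, adjusted p = 0.593) and *Elovl7* (0.09, adjusted p = 0.930) overlapped between the temperatures.

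The third comparison set the genotypes against each other at 8°C. *Elovl3* was called lower in *Jmjd1a* HY/HY scWAT and no other member was called, where 5.93% of all genes were called, 4.42% lower (731 genes) and 1.51% higher (249 genes). With library totals 480 were lower and 535 higher. The mutant level of 78.4 ± 42.0 CPM stood against 426.2 ± 32.8 CPM in wild-type mice, and the highest mutant library, at 122.5 CPM, lay well below the lowest wild-type one, at 396.0 CPM. The log2 fold change was -2.44 (SE 0.64, 95% interval -3.84 to -1.04, edgeR adjusted p = 0.0405). This call sat close to the threshold. It was lost without any 1 of the 6 libraries at 8°C, with adjusted p from 0.0532 to 0.151, and with DESeq2 (0.0853) or library totals (0.0513), whereas a fit of the 6 libraries alone gave 0.00245. The sign was the same each time. The beige marker sum differed as well, 561.7 to 1713 CPM against 8316 to 9216 CPM, with 7 of 8 markers lower, while 3 of 6 macrophage markers were higher, at 218.4 to 298.0 CPM in sum against 127.2 to 141.3 CPM. Of the 8 white adipocyte markers 2 were called higher, while their sums overlapped. Their part in the difference was not tested.

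*Elovl6* was the other member whose libraries did not overlap between the genotypes at 8°C, which made 2 of 6 against 35.4% of all genes. It was at 510.9 ± 183.6 CPM in mutant and 1185 ± 328.8 CPM in wild-type scWAT, with a log2 fold change of -1.21 (SE 0.39, edgeR adjusted p = 0.0837). Without replicate 2 or replicate 3 of the mutant mice at 30°C, libraries of neither group compared, it passed (adjusted p = 0.0329 and 0.0422), as it did with DESeq2 (0.0141) and in a fit of the 6 libraries alone (0.0196). *Elovl5* was at 154.0 ± 18.0 and 164.5 ± 18.4 CPM, and the 95% interval of its log2 fold change ran from -0.50 to 0.31. *Elovl1* was at 42.3 ± 2.65 and 42.1 ± 2.63 CPM, with an interval from -0.24 to 0.25. *Elovl7* was at 8.07 ± 1.22 and 6.96 ± 0.811 CPM, with an interval from -0.54 to 0.98. Each of these 3 intervals holds 0 and bounds the difference on either side.

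The fourth comparison set the genotypes against each other at 30°C, and no member was called, where 1% of all genes were called by edgeR, 0.562% higher and 0.441% lower. At an unadjusted p under 0.05 there were 4 of 6, namely *Elovl1*, *Elovl3*, *Elovl6* and *Elovl7*, and DESeq2 called 1, *Elovl6*. Of all 16540 genes 3083 had an unadjusted p under 0.05, and DESeq2 called 367 higher and 316 lower. *Elovl6* measured 619.1, 1255 and 433.0 CPM in mutant scWAT against 228.5, 168.0 and 285.6 CPM in wild-type scWAT, so that the lowest mutant library lay above the highest wild-type one. The log2 fold change of 1.76 (SE 0.39, 95% interval 0.90 to 2.62) is 3.38-fold, with an edgeR adjusted p of 0.0576. It passed with DESeq2 (0.000356), without replicate 1 (0.0487) or replicate 3 (0.0454) of the mutant mice at 30°C, and it did not in a fit of the 6 libraries alone (0.229).

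*Elovl1* was the other member without overlap at 30°C, at 42.0, 51.4 and 46.4 CPM in mutant against 54.2, 51.6 and 63.8 CPM in wild-type scWAT, with the nearest libraries almost level. Of all genes 18.3% did not overlap there, 7.66% higher and 10.6% lower. Its log2 fold change was -0.28 (SE 0.11, edgeR adjusted p = 0.208). For *Elovl3* the log2 fold change of 2.34 (SE 0.98, edgeR adjusted p = 0.229) came from replicate 2 of the mutant mice, with 140 counts where the other 5 libraries at 30°C had 1 to 15, and without that replicate it was 0.18 (adjusted p = 0.926). The same replicate had the highest *Elovl6* level at 30°C. *Elovl7* was at 7.56 ± 3.18 in mutant and 12.9 ± 5.14 CPM in wild-type scWAT (log2 fold change -0.77, adjusted p = 0.245), and without replicate 2 of the wild-type mice the value was -0.47 (0.582). *Elovl4* had a log2 fold change of -0.59 (0.706), which turned to 1.60 (0.144) without that library. The mammary epithelium markers, a tissue that lies in this fat pad, summed to 2111 to 3731 CPM in mutant and 4378 to 5752 CPM in wild-type scWAT at 30°C, with none of the 10 tested called. Those of macrophages summed to 188.8 to 328.7 CPM in mutant and 166.0 to 169.2 CPM in wild-type scWAT, with none of 6 called. The part of these cells was not tested.

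The interaction asked directly whether the cold response differed between the genotypes. *Elovl6* was the member called, where 2.24% of all genes had an adjusted p under 0.05, 2.07% with a negative difference (342 genes) and 0.169% with a positive one (28 genes). With library totals these were 186 and 43 genes. Its log2 fold change was 2.38 in wild-type and -0.59 in mutant scWAT, a difference of -2.97 (SE 0.55, 95% interval -4.18 to -1.77, edgeR adjusted p = 0.0226). It missed the threshold without replicate 1 or 2 of the wild-type mice at 30°C (adjusted p = 0.0691 and 0.0589), replicate 1 or 2 of the wild-type mice at 8°C (0.0599 and 0.0635) or replicate 1 or 3 of the mutant mice at 8°C (0.0758 and 0.0687). The difference itself stayed between -3.31 and -2.42 in every alternative. For *Elovl3* the difference was -4.78 (SE 1.15, edgeR adjusted p = 0.0553), and it passed without replicate 1 (0.0172) or replicate 3 (0.0379) of the mutant mice at 30°C and with DESeq2 (0.0205). Without replicate 2 of the mutant mice at 30°C it was -2.62 (0.232). *Elovl5* rose by 1.09 in wild-type scWAT and had a log2 fold change of 0.70 in mutant scWAT, and its interaction of -0.40 had a 95% interval from -0.97 to 0.18 (edgeR adjusted p = 0.515). *Elovl1*, *Elovl4* and *Elovl7* had adjusted p-values of 0.430, 0.882 and 0.371. The *Elovl4* difference was 0.41 and turned to -1.77 (0.160) without replicate 2 of the wild-type mice at 30°C.

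**Figure D3:**
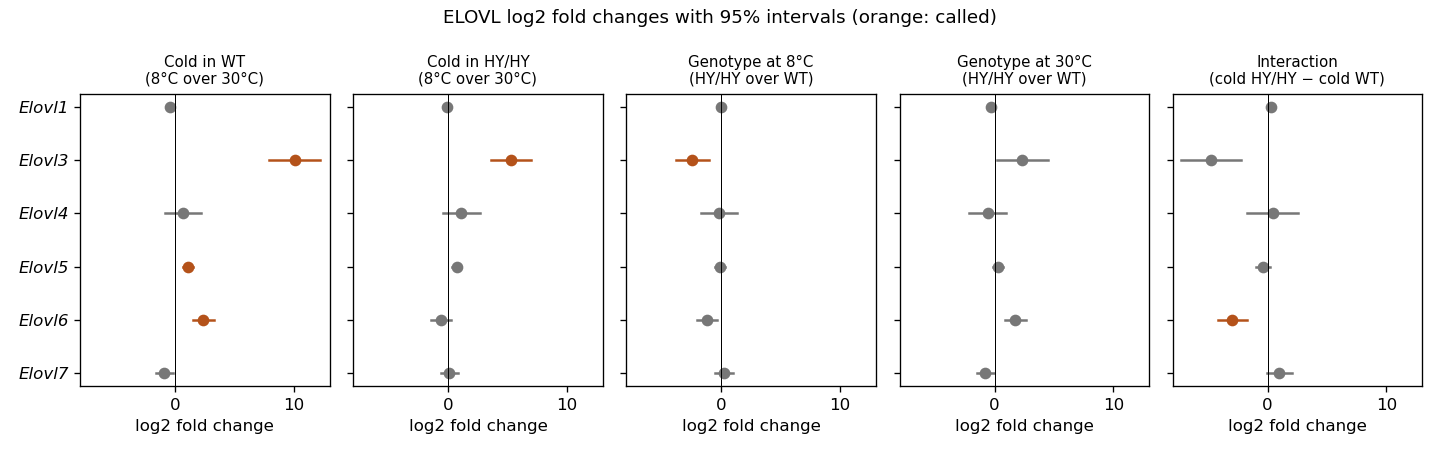
Log2 fold change of the 6 ELOVL genes tested (points) with 95% intervals (lines) in the 5 comparisons, on 1 linear scale; orange marks a called gene. *Elovl3* is called at 10.06 and 5.29 by cold in the 2 genotypes and at -2.44 between them at 8°C, and *Elovl6* at 2.38 by cold in wild-type mice and at -2.97 in the interaction.

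Ordered by mean level, *Elovl3* ran from wild-type at 8°C over mutant at 8°C to mutant and wild-type at 30°C, with only the last 2 groups overlapping. For *Elovl6* the order was wild-type at 8°C, mutant at 30°C, mutant at 8°C and wild-type at 30°C, and only the last step had no overlap between neighbours. *Elovl5* had overlapping groups at each temperature and a gap between the temperatures. *Elovl1* was highest in wild-type mice at 30°C, apart from the other 3 groups, which overlapped. In *Elovl4* and *Elovl7* all neighbours overlapped.

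The genes with the most similar pattern to each member, by Pearson correlation of log2 CPM over the 12 libraries among 14578 genes, differed from member to member. For *Elovl3* they were *Cux1* (r = 0.979), *Fabp3-ps1* (0.961) and *Arfgef2* (0.960). For *Elovl6* they were *Acaca* (0.946), which encodes the acetyl-CoA carboxylase that makes malonyl-CoA for fatty acid synthesis, *Pygl* (0.937), the liver form of glycogen phosphorylase, and *Ttc25* (0.934). For *Elovl5* they were *2610507B11Rik* (0.972), *Dennd5a* (0.969) and *Ube3c* (0.960). The leading genes were *Porcn* (0.946), *Lemd2* (0.935) and *Lypla2* (0.929) for *Elovl1*, *Cldn1* (0.872), *Tiam1* (0.850) and *Zfp36l2* (0.850) for *Elovl4*, and *Carmil1* (0.984), *Cdk19* (0.979) and *Evpl* (0.978) for *Elovl7*. The 12 points share the 4 groups and the scaling, and no test was made. Between the members themselves, r was 0.85 for *Elovl3* and *Elovl5* and 0.69 for *Elovl3* and *Elovl6*, and within groups, after the group means were taken off, -0.30 and 0.61.

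The enzymes that complete the cycle after the condensation are the ketoacyl-CoA reductase *Hsd17b12*, the dehydratases *Hacd1* to *Hacd4* and the enoyl-CoA reductase *Tecr*. By cold in wild-type scWAT, where 10.3% of all genes were called higher, 4 of these 6 rose, with a median log2 fold change of 0.79. *Hsd17b12* went from 162.9 ± 27.5 to 527.6 ± 13.7 CPM (log2 fold change 1.70, edgeR adjusted p = 7.13e-05), *Hacd2* from 92.2 ± 35.8 to 205.4 ± 22.5 CPM (1.16, 0.00517), *Hacd1* from 11.2 ± 1.84 to 20.3 ± 2.83 CPM (0.86, 0.0230) and *Tecr* from 265.5 ± 58.0 to 440.6 ± 22.7 CPM (0.73, 0.0196). The calls of *Hacd1* and *Tecr* were lost without replicate 1 or 2 of the wild-type mice at 30°C (adjusted p = 0.0508 and 0.0867 for *Hacd1*, 0.0689 and 0.0788 for *Tecr*) or without replicate 1 at 8°C (0.0549 and 0.0522), that of *Hacd1* also without replicate 3 at 8°C (0.0874) and that of *Tecr* without replicate 2 at 8°C (0.0593). None of the 6 was called by edgeR in the other 4 comparisons. At an unadjusted p under 0.05 there were 2 by cold in the mutant, 0 between the genotypes at 8°C, 3 at 30°C and 3 in the interaction, and DESeq2 called 1, 0, 1 and 2. Of all 16540 genes 2426, 3700, 3083 and 2481 had an unadjusted p under 0.05 in these comparisons. DESeq2 called 211, 406, 367 and 95 of all genes higher in them and 91, 962, 316 and 712 lower. *Hsd17b12* measured 283.5 ± 61.8 CPM at 30°C and 495.8 ± 24.8 CPM at 8°C in mutant scWAT (0.81, adjusted p = 0.0877). With a replicate block, which matches libraries by number though no source pairs the mice, it was called (edgeR adjusted p = 0.0336). In a fit of the mutant libraries alone it was not.

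The list named malonyl-CoA and palmitate supply held 8 genes, not all of which supply the elongases. By cold in wild-type scWAT, where 10.3% of all genes were called higher, all 8 of the list rose, with a median log2 fold change of 1.60. They were *Acly*, ATP citrate lyase (1.63), *Acaca* (1.58) and *Acacb* (1.62), the acetyl-CoA carboxylases, *Mlycd*, malonyl-CoA decarboxylase, which removes malonyl-CoA (1.80), *Fasn*, fatty acid synthase (1.48), *Slc25a1*, the mitochondrial citrate carrier (1.07), *Me1*, malic enzyme (2.22), and *Mcat*, of mitochondrial fatty acid synthesis (0.75). The call of *Acly* (edgeR adjusted p = 0.0266) was lost without replicate 2 or 3 of the wild-type mice at 30°C (0.0962 and 0.0547) or replicate 1 or 2 at 8°C (0.0821 and 0.0595). That of *Slc25a1* (0.0397) was lost without replicate 1 or 2 of the wild-type mice at 30°C (0.0845 and 0.133), any replicate of them at 8°C (0.0939, 0.106 and 0.0674) or replicate 1 or 3 of the mutant mice at 8°C (0.050 and 0.0514). In *Jmjd1a* HY/HY scWAT edgeR called none of the 8 by cold, with 2 at an unadjusted p under 0.05 and 2 called by DESeq2, and their median was 0.12. Over all genes edgeR called 0.248% there, and 2426 of 16540 had an unadjusted p under 0.05. DESeq2 called 211 of all genes higher and 91 lower. In the interaction edgeR called 2 of the 8 and DESeq2 6, all with a negative difference. Of all genes these were 342 and 712.

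2 of these genes were called between the genotypes at 30°C, both higher in mutant scWAT, where 0.562% of all genes were called higher. DESeq2 called 5 of the 8 higher, and 5 had an unadjusted p under 0.05 in edgeR. Of all 16540 genes these were 367 and 3083. *Acaca* measured 1453, 2512 and 1260 CPM in the mutant against 555.0, 693.0 and 738.1 CPM in wild-type mice (log2 fold change 1.4, SE 0.26, edgeR adjusted p = 0.0358). *Me1* measured 2148, 5967 and 2916 CPM against 586.5, 794.0 and 863.3 CPM (2.30, SE 0.34, 0.0187). As with *Elovl6*, each mutant library lay above each wild-type one and replicate 2 was the highest. Both calls were lost in a fit of the 6 libraries alone (adjusted p = 0.218 for both), and without replicate 1 of the wild-type mice at 30°C (0.110 for *Acaca*, 0.0686 for *Me1*) or replicate 2 (0.0935 and 0.0548). For *Acaca* alone the call was also lost without replicate 3 of the wild-type mice at 30°C (0.0579), without replicate 1, 2 or 3 of the wild-type mice at 8°C (0.0578, 0.0638 and 0.0549) and without replicate 1 of the mutant mice at 8°C (0.0548). The median log2 fold change of the 8 was 1.15 at 30°C, where that of all genes was -0.01. At 8°C, where 4.42% of all genes were called lower in the mutant, *Mlycd* was the member of this list called between the genotypes. It was lower in the mutant, at 75.2 ± 6.65 against 153.1 ± 9.29 CPM (-1.03, edgeR adjusted p = 0.0132). Without replicate 3 of the wild-type mice (0.0556) or of the mutant mice (0.0647) at 8°C it was not called.

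**Figure D4:**
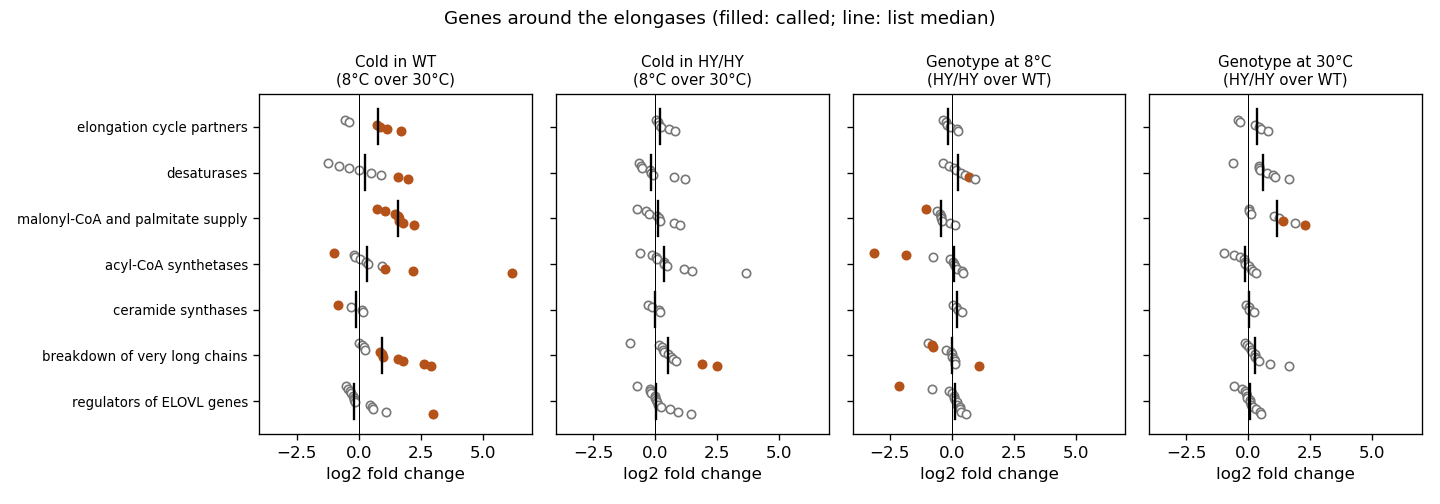
Log2 fold change of the tested genes of the 7 lists around the elongases (points, filled where called; black line, list median) in 4 comparisons. All 8 genes of the list named malonyl-CoA and palmitate supply, which includes the decarboxylase *Mlycd*, are filled by cold in wild-type mice and none by cold in *Jmjd1a* HY/HY mice.

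Desaturases put double bonds into the chains that the elongases make or extend. By cold in wild-type scWAT 2 of 8 rose, *Scd1* (13592 ± 5458 to 41112 ± 2550 CPM, log2 fold change 1.60, edgeR adjusted p = 0.00752) and *Scd3* (0.429 ± 0.192 to 1.77 ± 0.372 CPM, 1.99, 0.00242), both stearoyl-CoA desaturases. In that comparison 10.3% of all genes were called higher. By cold in the mutant no desaturase was called by edgeR or by DESeq2, which gave 2 of the 8 no adjusted p, and 1 had an unadjusted p under 0.05. Between the genotypes at 30°C edgeR called none, with a list median of 0.60. There 5 of the 8 had an unadjusted p under 0.05 in edgeR, against 3083 of all 16540 genes. DESeq2 called 3 of the 8 higher in the mutant, against 367 of all genes. *Fads1*, which acts beside *Elovl5* on polyunsaturated chains, was called higher in the mutant at 8°C, at 154.5 ± 30.0 against 95.5 ± 1.00 CPM (0.69, edgeR adjusted p = 0.0214). In that comparison 1.51% of all genes were called higher. The *Fads1* call was lost without any 1 of the wild-type libraries at 8°C (0.0706, 0.0784 and 0.0736) or without replicate 1 or 3 of the mutant mice at 8°C (0.0576 and 0.0913).

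Acyl-CoA synthetases activate fatty acids before elongation or oxidation. Of the 10 tested, *Acsl1*, *Acsl5* and *Slc27a2* rose by cold in wild-type scWAT and *Acsbg1* fell, where 10.3% of all genes were called higher and 6.93% lower. *Acsl1* (log2 fold change 1.06, edgeR adjusted p = 0.0368) lost its call without replicate 1 or 2 at 30°C (0.120 and 0.119) or any replicate at 8°C (0.0536, 0.0842 and 0.117) of the wild-type mice, or replicate 2 of the mutant mice at 8°C (0.0506). *Acsbg1* (-1.0, 0.0231) lost it without replicate 2 at 30°C (0.0775) or replicate 1 or 3 at 8°C (0.0635 and 0.0932) of the wild-type mice. By cold in the mutant edgeR called none of the 10, and DESeq2 called 3 higher, against 211 of all genes. There 5 of the 10 had an unadjusted p under 0.05 in edgeR, against 2426 of all 16540 genes. *Acsl5* measured 98.4, 93.6 and 93.2 CPM at 30°C and 397.9, 412.1 and 478.7 CPM at 8°C in wild-type mice, and 79.7, 89.5 and 86.0 CPM and 113.6, 138.2 and 101.4 CPM in mutant mice. It was called between the genotypes at 8°C (log2 fold change -1.87, edgeR adjusted p = 0.000156) and in the interaction (-1.71, 0.00471), and both calls held in every refit, 20 and 19 of them. Of all genes 4.42% were called lower in the mutant at 8°C, and 2.07% had a called negative difference in the interaction. *Slc27a2*, the very long chain acyl-CoA synthetase FATP2, reached 74.4 ± 20.4 CPM in wild-type and 8.44 ± 5.35 CPM in mutant scWAT at 8°C (-3.12, edgeR adjusted p = 0.0141). It was not called without replicate 3 of the wild-type mice (0.0608) or replicate 1 or 3 of the mutant mice (0.0688 and 0.0642) at 8°C.

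Peroxisomes take up and shorten very long chains. Of 11 genes of this breakdown, 7 rose by cold in wild-type scWAT, among them *Abcd3*, *Acox2*, *Hsd17b4*, *Ehhadh*, *Acaa1b* and *Scp2*, with a list median of 0.95. The share of all genes called higher there was 10.3%. Left-out wild-type libraries ended the call of *Scp2* (replicate 1 or 2 at 30°C, adjusted p = 0.0932 and 0.0908, or replicate 2 or 3 at 8°C, 0.0748 and 0.0722). *Acox2* lost its call without replicate 1 or 2 at 30°C (0.114 and 0.146) or any replicate at 8°C (0.0763, 0.134 and 0.0841) of the wild-type mice, or replicate 1 of the mutant mice at 8°C (0.0601). 2 rose in the mutant, the bifunctional enzyme *Ehhadh* (log2 fold change 1.90, edgeR adjusted p = 0.0042) and the thiolase *Acaa1b* (2.47, 0.0042), where 0.181% of all genes were called higher. With the replicate block 5 of the 11 rose in the mutant, *Abcd3* and *Hsd17b4* among those added, and among the synthetases *Acsl1* and *Slc27a1* were called. In a fit of the mutant libraries alone none of these was. Between the genotypes at 8°C the peroxisomal transporter *Abcd3* (-0.80, edgeR adjusted p = 0.0125) and *Ehhadh* (-0.76, 0.0404) were lower and the transporter *Abcd2* was higher (1.10, 0.0266) in the mutant. Of all genes 4.42% were called lower and 1.51% higher in that comparison. At 8°C the call of *Abcd3* was lost without replicate 3 of the wild-type mice (0.0555) or replicate 1 or 3 of the mutant mice (0.0644 and 0.0529), and that of *Abcd2* without any wild-type replicate (0.0970, 0.0827 and 0.0797) or replicate 1 or 3 of the mutant mice (0.0607 and 0.116). That of *Ehhadh* was lost without any 1 of the 6 libraries at 8°C (0.0749 to 0.157) or replicate 1 or 2 of the wild-type mice at 30°C (0.0537 and 0.0503).

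Ceramide synthases join the very long chains that ELOVL1 and ELOVL3 make to sphingoid bases. Of the 4 tested, *Cers6* fell by cold in wild-type scWAT (log2 fold change -0.82, edgeR adjusted p = 0.0149), where 6.93% of all genes were called lower. This call was lost without replicate 2 of the wild-type mice at 30°C (0.0630) or replicate 1 at 8°C (0.0604). None was called in the other comparisons by edgeR or DESeq2, with 0 at an unadjusted p under 0.05. *Cers2*, the one that prefers very long chains, was at 158.6 ± 21.1 and 172.3 ± 13.3 CPM in wild-type scWAT at 30°C and 8°C.

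Of 13 regulators of lipid synthesis genes, edgeR called only *Ppara*, a nuclear receptor for fatty acids, in any of the 5 comparisons. Of all genes edgeR called 10.3% higher by cold in wild-type scWAT and 4.42% lower in the mutant at 8°C. DESeq2 called 2 of the 13 higher by cold in wild-type scWAT, against 1915 of all 16540 genes. It called 1 lower in the mutant at 8°C (against 962) and 1 with a positive difference in the interaction (against 95). In wild-type scWAT *Ppara* went from 1.41 ± 0.546 to 11.1 ± 1.67 CPM (log2 fold change 2.99, edgeR adjusted p = 0.00115), and at 8°C it was at 2.52 ± 1.03 CPM in the mutant (-2.13, 0.0181). The call at 8°C was lost without replicate 2 (0.0676) or 3 (0.0539) of the wild-type mice or replicate 1 (0.0829) or 3 (0.0847) of the mutant mice at 8°C. The transcript of *Srebf1*, the gene for SREBP-1, was at 611.9 ± 139.1 and 448.2 ± 50.4 CPM in wild-type and 648.4 ± 321.3 and 560.0 ± 9.37 CPM in mutant scWAT at 30°C and 8°C, and it was not called by edgeR in any comparison.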

How the data were processed

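RNA of scWAT was sequenced by the authors as paired reads on 12 TruSeq libraries, taken here as 1 mouse each, since no source used here names pooled or repeated animals. Per the study's methods, reads were checked with FastQC, trimmed with fastp and aligned to mm10 with STAR, with GENCODE M25 gene IDs; StringTie is named in the submitters' processing notes. The versions are not given in the sources used here. The deposited values are raw counts of read pairs per gene (55401 genes), in the layout of STAR's gene counts, unstranded and by strand; multimapping pairs form an entry of their own. The sense strand, with 95.5% to 96.2% of the pairs counted on genes on either strand, was used. The 4 entries that name no gene (unmapped, multimapping, no feature and ambiguous), with 55.8% to 63.5% of all read pairs, stayed out of library sizes and tests. Members overlap other RefSeq genes (such as *Cdc20* for *Elovl1* and *Pitx3* for *Elovl3*), and their opposite-strand counts were at most 34 in a library.

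In R 4.3.3, edgeR 4.0.16 kept 16540 genes (filterByExpr), scaled by TMM and fitted a quasi-likelihood model to all libraries, with a mean for each group and no covariate (8 residual degrees of freedom, common biological coefficient of variation 20.7%). p-values are two-sided and adjusted over all genes kept (Benjamini-Hochberg); the call needs that p below 0.05 and, except for the interaction, a fold outside 0.67 to 1.5. An exact permutation test of 3 libraries against 3 cannot go below p = 0.1, which each member without overlap between 2 groups has. Nothing in the sources gives litters or days, so p-values measure the spread between these libraries only. Comparisons share libraries: each group enters a cold and a genotype comparison, and the interaction uses all 12. Exon lengths are unions of GENCODE M1 exons, and coordinates, overlaps and promoters are from RefSeq on GRCm38.p6.

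Members, pathway lists and marker lists were chosen with earlier results of these data known. Named were all members, the pathway genes called in a comparison, the 3 genes most correlated with each member (mean of at least 10 counts; log2 CPM, prior count 2) and *Kdm3a*; 1 pathway gene that the rule names is not reported here. Only libraries with the same replicate number were correlated. Among the mutants, r between 30°C and 8°C was 0.11, 0.20 and 0.30 for replicates 1, 2 and 3. Between the genotypes at 30°C it was -0.06, 0.16 and 0.35. There, between the genotypes at 8°C and between the temperatures in wild-type mice, 1 pair had a correlation below 0. Whether the numbers pair the mice was not tested. Alternatives were DESeq2 1.42.0, library totals, genes of mitochondrial DNA left out, no filter, at least 10 counts in every library, the libraries of the comparison alone, both strands, a replicate block, a stricter p of 0.01, no fold limit, and each library left out in turn.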

Additional observations from a re-analysis of the deposited data

Results flagged for a closer look

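The cold response of 5 named genes differed between the genotypes by the interaction term of the edgeR fit, with p-values adjusted over all genes. They came from the 6 members tested and all tested genes of the pathway lists. Of all 16540 genes 2.24% passed this test, 2.07% with a negative difference. The mutant cold response minus the wild-type one, on the log2 scale, was -2.97 for *Elovl6* (adjusted p = 0.0226), -1.83 for *Acaca* (0.0302), -2.15 for *Me1* (0.0372), -1.71 for *Acsl5* (0.00471) and -1.05 for *Abcd3* (0.0364). At 30°C *Acaca* and *Me1* were called higher in the mutant and *Acsl5* and *Abcd3* were not called, whereas at 8°C *Acsl5* and *Abcd3* were called lower and *Acaca* and *Me1* were not. With each library left out in turn the adjusted p reached 0.0900 for *Acaca*, 0.109 for *Me1* and 0.109 for *Abcd3*, in each case without replicate 1 of the mutant mice at 8°C, and 0.0331 for *Acsl5*. The call of *Acaca* was lost without any 1 wild-type library other than replicate 3 at 30°C and without replicate 1 or 3 of the mutant mice at 8°C. *Me1* and *Abcd3* lost theirs without any of the same wild-type libraries or any mutant library at 8°C, and *Abcd3* also without replicate 2 of the mutant mice at 30°C. Groups of 3 libraries are too small for the test of single outlying samples. Opposite-strand counts on the members, which the comparisons do not use, ran from 5 to 34 for *Elovl6* and were at most 4 for the others. In no group were all 3 libraries above both 3 counts and the highest wild-type library at 30°C.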

How the results depend on the processing

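The 6 members' log2 fold changes were recomputed 584 times. 541 kept their call or lack of one, 18 lost a call, 25 gained one, and no called value changed sign; 10 values that were not called changed sign. The number of members called by cold in wild-type mice was 3, 5 with library totals, 2 with at least 10 counts in every library, 4 without a filter and without a fold limit, and 3 to 4 with each library left out. By cold in *Jmjd1a* HY/HY mice it was 1, 2 with DESeq2, 0 with at least 10 counts in every library (which drops *Elovl3*), 0 with the libraries of the comparison alone, 0 at an adjusted p under 0.01, and 0 to 2 with libraries left out. Between the genotypes at 8°C it was 1, 0 with library totals, with at least 10 counts in every library and at an adjusted p under 0.01, 2 without a filter, with the libraries of the comparison alone and with the replicate block, and 0 to 2 with libraries left out. At 30°C it was 0, 1 with DESeq2, without a filter and with the replicate block (*Elovl6*, adjusted p = 0.0398), and 0 to 1 with libraries left out. For the interaction it was 1, 2 with DESeq2, without a filter and with the replicate block, 0 at an adjusted p under 0.01, and 0 to 2 with libraries left out. Except where a filter drops the gene, the cause of these shifts was not tested. DESeq2 called *Elovl6* and not *Elovl3* at 8°C.

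The replicate block, whose numbers no source ties to paired mice, also called *Elovl7* by cold in wild-type mice (4 members), *Elovl6* at 8°C and *Elovl3* in the interaction. For the mutant cold response it kept 1 member called while all genes called went from 41 to 160 (128 higher, 32 lower). Over all genes, the calls by cold in wild-type mice went from 1707 higher and 1147 lower to 1057 and 4144 with library totals, and the genotype calls at 8°C from 249 and 731 to 535 and 480. At 30°C DESeq2 called 367 higher and 316 lower against 93 and 73, and the fit of those libraries alone called 0, as it did for cold in the mutant, where DESeq2 called 211 higher and 91 lower against 30 and 11. For the interaction DESeq2 called 95 and 712 against 28 and 342. Without 1 library the calls ran from 1893 (warm wild-type replicate 2) to 3392 by cold in wild-type mice, from 7 (replicate 1 of the mutant mice at 8°C) to 690 (replicate 3 of the mutant mice at 30°C) by cold in the mutant, from 352 (replicate 3 of the mutant mice at 8°C) to 1232 at 8°C, from 18 (replicate 1 of the wild-type mice at 30°C) to 370 (replicate 1 of the mutant mice at 30°C) at 30°C, and from 87 to 655 (the same libraries) in the interaction. Of 43 calls of pathway genes, 18 held under every refit, 16 of them among the 27 by cold in wild-type mice; library totals ended those of *Hacd1*, *Tecr*, *Mcat*, *Scp2*, *Slc25a1* and *Acox2* among them, of *Acaca* at 30°C and of *Acaca* and *Me1* in the interaction. The depth limits *Elovl2* and *Elovl4*, and *Elovl3* at 30°C, where 1 library had 1 count (0.0453 CPM).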
